A study of Homo sapiens with 43 samples.

Results

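FLAG-only libraries are eCLIP immunoprecipitations made with an antibody against the FLAG peptide and titled without any RNA-binding protein. Members were the 7 samples titled FLAG-only with a gel range, of 43 samples in the series and of 25 libraries with a peak list. They covered 25-100, 50-125, 75-150, 100-175, 125-200, 150-225 and 175-250 kDa, with 1 library per range. All came from HEK293T, a human embryonic kidney cell line, crosslinked with ultraviolet light. The labels do not say whether these cells carried a tag, whether the ranges came from 1 lysate, or whether the libraries came from separate cultures. Each range spanned 75 kDa and began 25 kDa above the one before it, so neighbours shared 50 kDa of the gel. The high ranges below are 125-200, 150-225 and 175-250 kDa, and the low ranges are 25-100, 50-125 and 75-150 kDa.

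In eCLIP, ultraviolet light joins RNA to the proteins that touch it, an antibody pulls the complexes down, and RNA is recovered from a slice of a protein gel. The slice lies above the protein because bound RNA slows it. A size-matched input is the same slice cut without immunoprecipitation, and it corrects for RNA that abundant proteins of that size carry. The FLAG peptide is a short engineered epitope, so a FLAG library made without a tagged protein is a control for RNA that comes down with the antibody and beads.

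Every library had a list of called peaks with a log2 fold over its input and a −log10 p, both the authors' own values. Significant peaks are those that reached 3 on both scales, that is 8-fold over input on the log2 scale, a cut made here and not by the authors. The lists held 71660, 67765, 52353, 61312, 50306, 55527 and 56706 called peaks from the lowest range to the highest. Of these, 865, 2544, 3508, 3945, 11119, 6374 and 3889 were significant, or 1.21%, 3.75%, 6.70%, 6.43%, 22.1%, 11.5% and 6.86%. Over all 7 lists, 32244 of 415629 peaks were significant, or 7.76%. The 125-200 kDa list stood highest and the 25-100 kDa list lowest. The 95% Wilson intervals, which cover counting error over peaks only, ran from 1.13% to 1.29% at 25-100 kDa and from 21.7% to 22.5% at 125-200 kDa. The V5-only libraries used the other tag antibody on the same 7 ranges and shared an input with FLAG-only in each range. They had 383, 727, 1448, 1191, 6562, 1915 and 899 significant peaks, or 0.555%, 1.10%, 2.69%, 1.92%, 11.5%, 3.10% and 1.86% of their called peaks. Both antibodies thus had their most significant peaks at 125-200 kDa and their fewest at 25-100 kDa, against a common input.

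The number of significant peaks averaged 12.67 ± 0.76 on the log2 scale in the high ranges and 10.95 ± 1.06 in the low ranges (SD, n = 3 each). The difference of 1.72 corresponds to 3.29-fold more peaks in the high ranges. The lowest high list, 3889 peaks, lay above the highest low list, 3508 peaks, so the groups did not overlap. An exact two-sided permutation test gave p = 0.10, the smallest that 3 against 3 libraries allow. Across all 7 ranges, Pearson's r between the lower bound and the log2 number was 0.73 (exact permutation p = 0.052) and Spearman's rho was 0.75 (exact permutation p = 0.066). With Benjamini-Hochberg adjustment over 11 tests these became 0.095 and 0.104. Without the 25-100 and 175-250 kDa libraries, r was 0.82 over 5 libraries (exact permutation p = 0.10). The percent of called peaks that were significant gave an r of 0.54 (exact permutation p = 0.211) and a rho of 0.82 (exact permutation p = 0.034, adjusted p = 0.075). Without the same 2 libraries its r was 0.67. None of the 11 tests passed an adjusted p of 0.05.

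**Figure D1:**
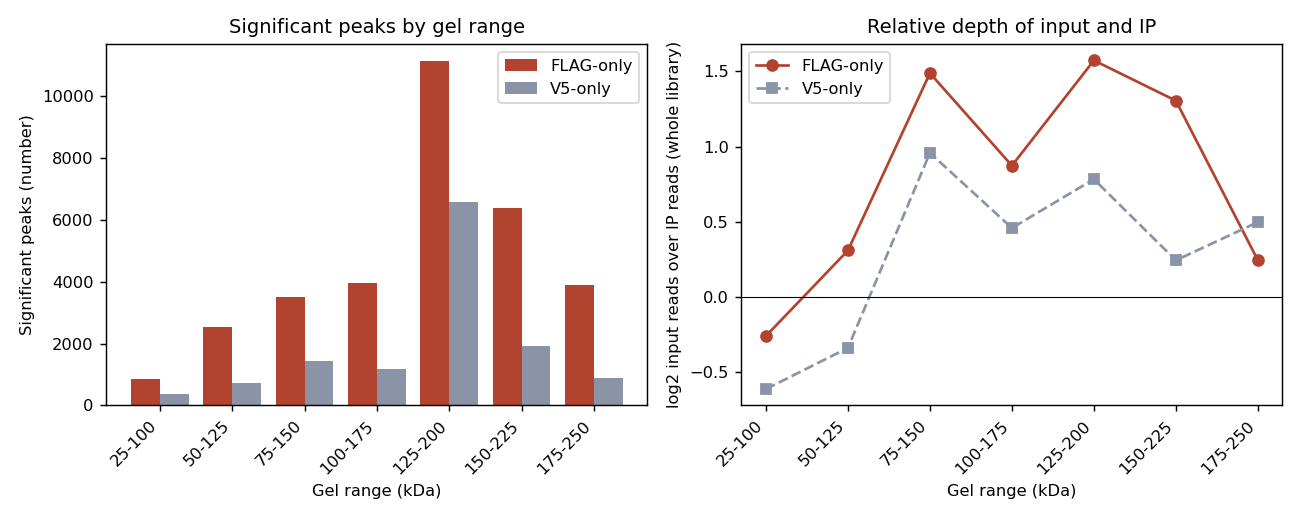
Left, number of significant peaks (bars) in FLAG-only and V5-only libraries by gel range in kDa, 1 library per bar. Right, log2 ratio of input reads to immunoprecipitated reads in the whole library, inferred from the folds. FLAG-only counts run from 865 at 25-100 kDa to 11119 at 125-200 kDa, and its depth ratio from −0.26 to 1.57.

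The depth of input relative to immunoprecipitation also differed between ranges. In each library the commonest fold carried a p close to that of a two-sided Fisher test for 3 reads over 1 input read. The Fisher p was computed in its binomial limit, which takes both depths as large. At 75-150 kDa, for example, the deposited −log10 p was 1.2337 and the computed one 1.2337, and at 125-200 kDa they were 1.2858 and 1.2859. That fold gives input reads over immunoprecipitated reads for the whole library. On the log2 scale this depth ratio was −0.26, 0.31, 1.49, 0.87, 1.57, 1.30 and 0.25 from the lowest range to the highest. Against 1 input read, a significant peak therefore needed 16, 12, 7, 9, 7, 7 and 12 reads. Whether an input of 1 stands for 1 read or for none could not be told from the files. The bar was lowest at 75-150, 125-200 and 150-225 kDa and highest at 25-100 kDa. The log2 number of significant peaks had an r of 0.83 with the depth ratio (exact permutation p = 0.012, adjusted p = 0.129 over 12 added tests) and a rho of 0.71 (exact permutation p = 0.088, adjusted p = 0.264). Leaving out the 2 libraries farthest from the median depth ratio, 25-100 and 125-200 kDa, gave an r of 0.52 over 5 libraries (exact permutation p = 0.392). Those 2 also had the fewest and the most significant peaks. The 5 left span less of both measures, so the lower r cannot tell whether the relation rests on the 2. The depth ratio itself had an r of 0.39 with the lower bound (exact permutation p = 0.368, adjusted p = 0.518). Its part in the counts was not tested.

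Significant peaks were widest in the lowest range. Their median width was 64, 56, 50, 45, 47, 47 and 45 nt from the lowest range to the highest. It averaged 46.3 ± 1.2 nt in the high ranges and 56.7 ± 7.0 nt in the low ranges (SD, n = 3 each, exact permutation p = 0.10), and the groups did not overlap. Against the lower bound, r was −0.85 (exact permutation p = 0.0079, adjusted p = 0.075) and rho was −0.84 (exact permutation p = 0.029, adjusted p = 0.075). Without the 25-100 and 175-250 kDa libraries r was −0.77 (exact permutation p = 0.133). Since the reads needed for significance differed between ranges, widths were also compared at 16 to 20 inferred reads over 1 input read, which pass in every library, a choice made after seeing the data. Medians were then 59, 50, 53, 42, 47, 44.5 and 38 nt over 219, 142, 11, 49, 73, 48 and 206 peaks, with an r of −0.88 (exact permutation p = 0.012) and a rho of −0.86 (exact permutation p = 0.024). Without the 75-150 kDa library and its 11 peaks, r was −0.87 (exact permutation p = 0.018) and rho −0.83 (exact permutation p = 0.058). Called peaks that were not significant had medians of 35, 34, 33, 31, 31, 32 and 31 nt, with an r of −0.86 (exact permutation p = 0.021, adjusted p = 0.129). V5-only significant peaks had medians of 56, 53, 48, 41, 44, 43 and 44 nt. The difference FLAG-only minus V5-only showed no trend past the threshold (r = −0.62, exact permutation p = 0.140, adjusted p = 0.279), so a trend particular to the FLAG antibody was not shown.

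**Figure D2:**
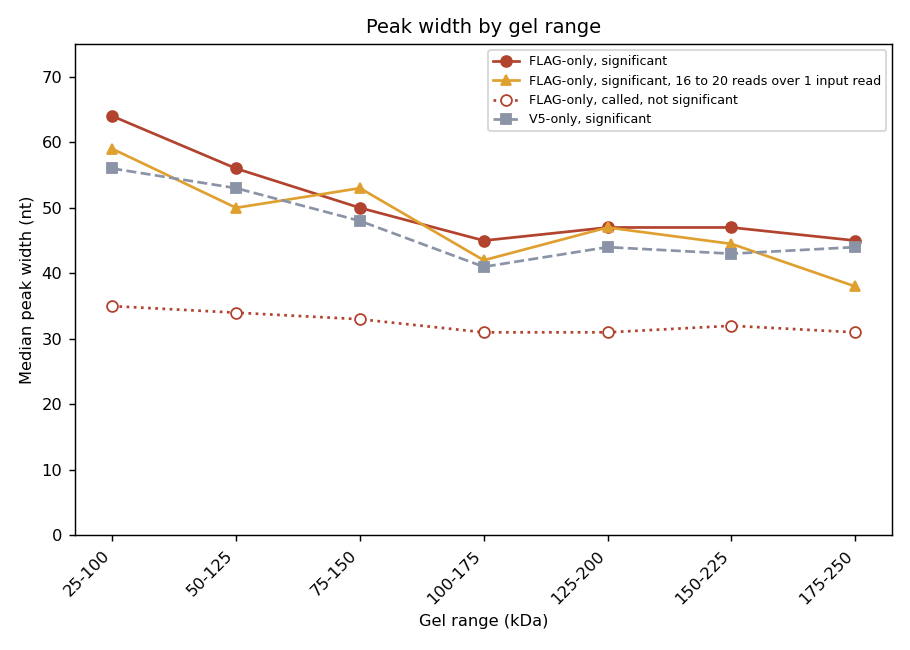
Median width in nt of significant FLAG-only peaks, of those with 16 to 20 inferred reads over 1 input read, of FLAG-only called peaks that were not significant, and of significant V5-only peaks, by gel range in kDa (1 library per point). FLAG-only significant peaks go from 64 nt at 25-100 kDa to 45 nt at 175-250 kDa, and the other called peaks from 35 nt to 31 nt.

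The median log2 fold of significant peaks was 3.44, 3.40, 3.49, 3.46, 3.71, 3.51 and 3.53 from the lowest range to the highest. Its rho with the lower bound was 0.82 (exact permutation p = 0.034, adjusted p = 0.075) and its r was 0.54 (exact permutation p = 0.210), with 125-200 kDa standing above the rest.

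Merging overlapping significant peaks of the 7 lists on the same strand gave 20344 regions. Most belonged to a single range. Of the regions, 14443 were significant in 1 library, 3565 in 2, 1363 in 3, 570 in 4, 254 in 5, 101 in 6 and 48 in all 7. The share in at least 2 libraries was 29.0% and the share in all 7 was 0.236%. At a log2 fold of at least 2 the counts were 12902 and 710 of 27673 regions. Of the 14443 in 1 library, 14.98% had no called peak in any other FLAG-only library, and 70.5% had a log2 fold of at least 2 in another. Median region width was 44 nt for 1 library, 103.5 nt for 4 and 163 nt for all 7, and merging itself can widen regions. The 125-200 kDa list had the largest share of regions significant in no other list, 57.4% of its 10449, and 175-250 kDa the smallest, 35.1% of 3426. Of the regions significant at 125-200 kDa alone, 9.61% had no called peak in another FLAG-only library, and 75.5% had a log2 fold of at least 2 in one. In both counts the fold was the highest over the other libraries, and no like share over all regions was computed. The median log2 fold of all called peaks was already between 1.33, at 25-100 kDa, and 2.89, at 125-200 kDa.

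High and low ranges were unequal in what they held alone, but their lists also differed in length. A region in all 3 low ranges had to be in the 25-100 kDa list of 865 significant peaks, while the shortest high list held 3889. How far the counts below follow list length was not tested. Regions significant in all 3 high and no low range numbered 385, or 1.89% of regions, and those in all 3 low and no high range numbered 3, or 0.0147%. Regions in any high and no low range were 12783, or 62.8%, against 3204, or 15.7%, in any low and no high range. Most of the 385 were nonetheless called in the low ranges, in 295, 314 and 304 cases at 25-100, 50-125 and 75-150 kDa. Their median log2 folds there were 2.06, 2.51 and 2.49, below the threshold of 3, against 3.94, 3.53 and 3.57 in the high ranges. The choice of these regions fixed the high medians above 3 and favoured low medians below it, so the contrast is no separate result.

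Equal lists were compared to see whether neighbouring slices shared sites. The 865 significant peaks of highest −log10 p were taken from each library. Neighbouring ranges overlapped by 30.7% on average over 6 pairs and the other 15 pairs by 23.5%. The difference of 7.19 percentage points ranked near the top of all orders of the libraries (exact one-sided permutation p = 0.030, adjusted p = 0.075), where the smallest possible p was 0.0004. Leaving out 150-225 kDa reduced it to 0.24 points, leaving out 125-200 kDa to 3.25 and leaving out 25-100 kDa to 4.39. Leaving out 50-125 kDa raised it to 13.5 and leaving out 100-175 kDa to 12.1. With all significant peaks instead of equal lists it was 2.19 points (exact permutation p = 0.113), and with lists ranked by log2 fold 1.76 points (exact permutation p = 0.126).

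The overlap was highest in the upper part of the gel and did not follow shared gel alone. The 125-200 and 150-225 kDa lists overlapped by 47.2% and the 150-225 and 175-250 kDa lists by 46.8%. The 100-175 and 175-250 kDa lists share no gel and overlapped by 46.0%. The 25-100 and 50-125 kDa lists share 50 kDa and overlapped by 15.4%. The 25-100 kDa list was the least like the others, with a mean of 13.9% over the other 6, and 150-225 kDa the most alike, with 33.5%. By distance between lower bounds, means were 30.7% at 25 kDa, 25.8% at 50, 27.0% at 75, 21.3% at 100, 18.9% at 125 and 14.2% at 150 kDa apart, the last from 1 pair. The lists reached different depths of evidence, since their last peak had a −log10 p of 3.08 at 25-100 kDa and 24.9 at 125-200 kDa. In the 125-200 kDa list 136 significant peaks at a lower ceiling of the deposited −log10 p, 15.7, could not enter.

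**Figure D3:**
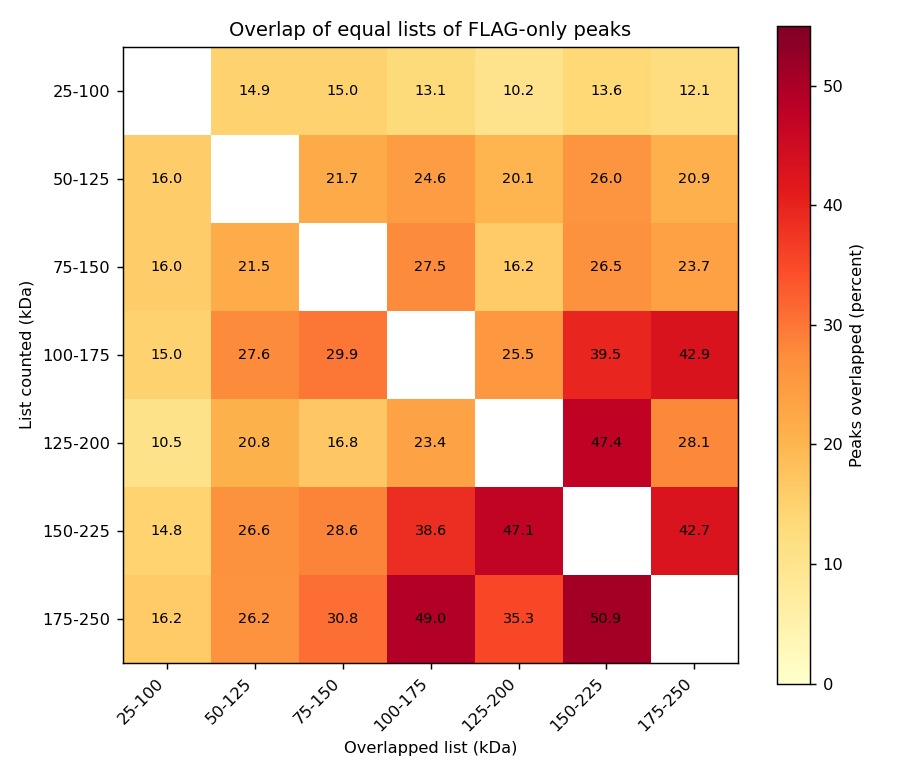
Percent of the 865 top peaks of each FLAG-only list (rows, gel range in kDa) overlapped by the 865 top peaks of each other list (columns), by at least 1 nt on the same strand. The largest values lie among the ranges from 100-175 kDa up, and the 25-100 kDa row runs from 10.2 to 15.03.

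The 48 regions significant in all 7 libraries fell in 35 loci on 15 chromosomes, 25 on the plus and 23 on the minus strand, where regions within 10 kb on 1 strand count as 1 locus. Their mean log2 folds ran from 3.41 to 6.62. Median folds over the 48 were 3.99, 4.02, 4.17, 4.71, 5.26, 4.58 and 4.84 from the lowest range to the highest. The highest fold of a region lay at 125-200 kDa for 23 regions and at 175-250 kDa for 12, and the lowest at 25-100 kDa for 22. For scale, 8770 regions called in all 7 libraries, significant or not, had median folds of 1.67, 2.01, 2.07, 2.01, 2.95, 2.40 and 1.97. No gene annotation of hg19, the files' build, was used here, so regions are given by position alone.

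The region of highest mean fold was chr16:15021861-15022078 on the plus strand, 218 nt wide. Its log2 folds were 5.39, 5.06, 6.53, 6.10, 6.35, 9.13 and 7.78, with the maximum at 150-225 kDa. Next came chr4:151172695-151173118 on the plus strand, 424 nt wide. Its log2 folds were 4.65, 5.80, 5.98, 6.56, 8.78, 6.46 and 8.05. The low ranges gave the 3 lowest values. At chr1:3741281-3741483 on the minus strand the folds were 5.36, 5.89, 5.39, 5.67, 8.70, 7.59 and 6.78. All 3 high ranges exceeded all other ranges there. At chr20:62579890-62580046 on the minus strand the folds were 5.39, 7.42, 5.71, 5.40, 7.24, 6.50 and 6.58. Here 50-125 kDa was highest, and the high and low ranges overlapped. The −log10 p at this region reached the cap of 400 in the 4 upper ranges. At 100-175 kDa 16 significant peaks were tied at that cap and at 125-200 kDa 113, and the peak here had the highest fold among them. At chr10:99011024-99011259 on the minus strand the folds were 3.91, 4.48, 6.29, 6.40, 5.96, 7.81 and 7.75, and at chr9:139422773-139423023 on the minus strand they were 3.91, 3.28, 6.01, 7.27, 6.48, 6.38 and 6.76. In both, 25-100 and 50-125 kDa were the lowest.

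None of these 6 regions was significant in any V5-only library or in any of the 11 libraries of RNA-binding proteins, which also held for 56.4% of all 20344 regions. At 5 of them, V5-only libraries had at most 1 called peak. Of the 48 regions, 25 were significant in no V5-only library and 23 in at least 1. Of all 20344 regions, 71.0% were significant in no V5-only library, and of the 101 regions in 6 FLAG-only libraries, 64.4% were significant in at least 1, against 47.9% of the 48. Those 25 had mean log2 folds with a median of 5.31 (range 3.54 to 6.62), and the 23 a median of 3.79 (range 3.41 to 5.13). Of the 25, 14 had no called peak in any V5-only library and 24 were significant in no library of an RNA-binding protein, against 76.5% of all 20344 regions. FMR1 is a translational regulator that binds messenger RNA, and its FLAG library had 17354 significant peaks. It had a called peak at 2 of the 25 regions, with 1 significant, and at all 23 of the others, with 13 significant. The DGCR8 FLAG library, of the microRNA-processing partner of DROSHA, had a called peak at 6 of the 25 and at 14 of the 23. The matching shares of all 20344 regions were not computed for the FMR1 and DGCR8 FLAG libraries, nor for absence of V5-only calls. Whether these counts are unusual among all regions is therefore unknown. The 15 regions of highest mean fold all belonged to the 25. A called peak needs reads in the library, and whether those libraries lacked reads or lacked enrichment at the remaining positions was not tested. FLAG-only and V5-only share an input in each range, so these counts describe the regions and carry no test.

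**Figure D4:**
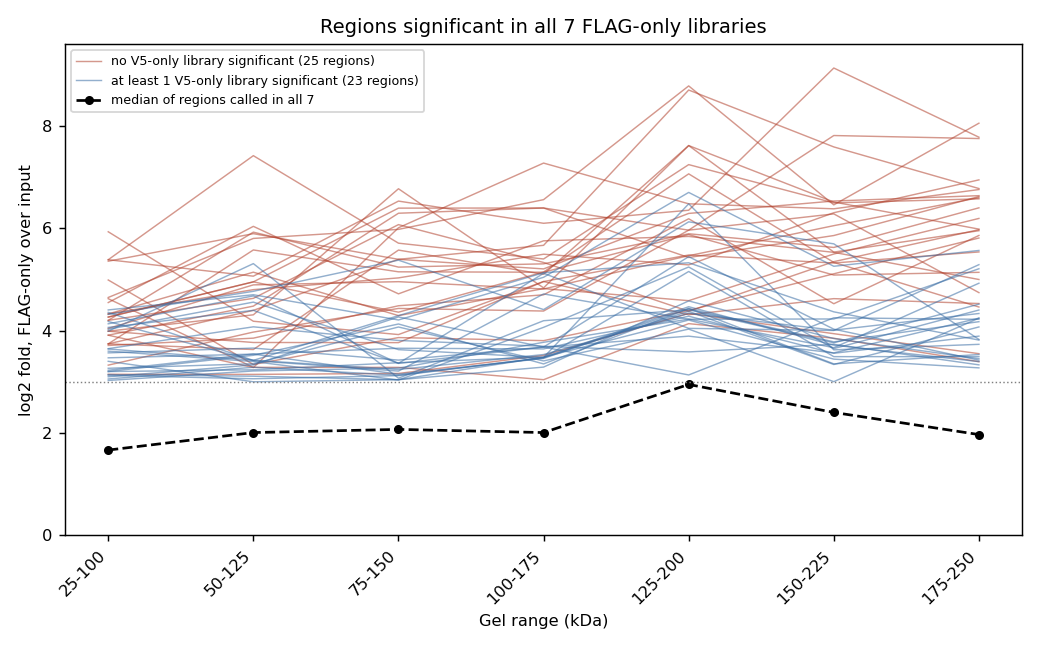
Log2 fold over input (y) by gel range in kDa (x) for the 48 regions significant in all 7 FLAG-only libraries, 1 line per region, coloured by whether any V5-only library was significant there. The dashed line is the median of the 8770 regions called in all 7, between 1.67 and 2.95, and the dotted line the threshold of 3. Single values of the 25 regions without a V5-only site reach 9.13, and the mean folds of both sets overlap, 3.54 to 6.62 against 3.41 to 5.13.

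At chr1:246948940-246949039 on the plus strand, both antibodies had called peaks in every range. FLAG-only log2 folds were 4.04, 4.89, 4.96, 4.81, 5.46, 6.05 and 6.60, so the high ranges all lay above the low ones. V5-only log2 folds were −0.35, −0.66, −0.46, −0.35, −0.44, −0.22 and 0.66 against the same inputs. This peak had the highest fold of the 8 significant peaks tied at the cap of 400 at 75-150 kDa. V5-only reads were thus present, below input in 6 ranges and above it at 175-250 kDa.

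Several of the 48 regions lay close together. The minus strand of chr12:57110689-57112573, a span of 1885 nt, held 4 of the 48, with mean log2 folds of 5.35, 5.31, 4.76 and 4.73. None of the 4 was significant in a V5-only library. The minus strand of chr14:102549370-102552462 held 3, with mean log2 folds of 3.71, 3.50 and 3.41, and each was significant in at least 1 V5-only library. A further 8 loci held 2 each. These clusters were singled out after their values were seen.

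At 25-100 kDa the significant peak of highest −log10 p was at chr12:104333287-104333403 on the plus strand. This region was significant in all 7 FLAG-only libraries with log2 folds of 3.64, 3.42, 3.24, 3.53, 4.34, 4.01 and 4.34. The V5-only folds there were 2.93, 3.17, 2.31, 2.83, 3.93, 3.41 and 3.11, significant in 4 libraries, and lay below the FLAG-only value in each range. At 175-250 kDa, 22 significant peaks were tied at the cap of 400, and the one of highest fold was chr19:893550-893589 on the plus strand. Its FLAG-only log2 folds were 1.82, 2.43, 2.90, 4.26, 3.63, 3.20 and 6.80, and its V5-only folds were 3.23, 2.38, 3.005, 4.33, 3.54, 3.06 and 5.57. Both antibodies had their highest fold there at 175-250 kDa.

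Of the 385 regions chosen as significant in all high and no low range, the 5 of highest fold are described next. At chr18:74829664-74829871 on the minus strand the log2 folds were 2.06, 2.63, 2.81, 5.33, 5.74, 6.00 and 6.37. The step lay between 75-150 and 100-175 kDa, which share 50 kDa. At chr6:39894404-39894491 on the minus strand the fold was 1.33 at 25-100 kDa, with no called peak at 50-125 and 75-150 kDa, and then 5.27, 5.03, 5.55 and 6.25. At chr16:89974253-89974487 on the plus strand the folds were 3.01 at 50-125 kDa, where the −log10 p of 2.94 missed the threshold, and 4.57, 6.27, 7.21 and 4.83 from 100-175 kDa up. chr10:563018-563113 on the minus strand had no called peak in a low range and folds of 6.19, 5.57, 5.39 and 6.20 from 100-175 kDa up. chr1:234532902-234532992 on the minus strand was called in the high ranges alone, with folds of 5.27, 5.70 and 6.13. None of the 5 was significant in a V5-only library, like 71.0% of all regions.

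The 3 regions chosen as significant in all low and no high range follow. chr16:89347999-89348068 on the minus strand had log2 folds of 3.87, 5.17 and 3.66 in the low ranges and no called peak above them. chr14:39764128-39764205 on the plus strand had 3.74, 4.12 and 3.90, then 1.93, 2.71, 2.30 and 1.73. chr13:107220160-107220379 on the minus strand had 3.06, 3.93 and 3.60, then 2.50, 2.02, 2.63 and 1.16. The chr13 region was also significant in 1 V5-only library, with a V5-only log2 fold of 3.49 at 75-150 kDa. The chr16:89347999-89348068 and chr14 regions were significant in no V5-only library. The chr14 and chr13 regions stayed above input in the upper ranges, below the threshold.

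The 8770 regions called in all 7 libraries were read as deposited and after subtracting each library's median. As deposited, all 3 high folds lay above all 3 low folds in 1593 regions, or 18.2%, and below them in 62, or 0.707%. After centring, the counts were 634 above, or 7.23%, and 580 below, or 6.61%. The counts in the 2 directions were close after centring and far apart before it. Median folds of the libraries over these regions differed by up to 1.28 on the log2 scale. Spearman's rho of log2 folds between libraries ran from 0.28 to 0.57 across these regions, which are not independent. The region of greatest centred difference toward the high ranges was chr15:96826149-96826168 on the minus strand. Its log2 folds were −2.84, 0.73, 1.26, 7.21, 3.45, 4.004 and 6.93. Toward the low ranges it was chr1:231003954-231004198 on the minus strand, with log2 folds of 1.12, 1.89, 2.95, 0.87, −0.01, 0.30 and 0.25.

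Some regions were lower in the immunoprecipitates than in input throughout. Of the 8770 regions, 86, or 0.981%, had a fold below 0 in all 7 libraries. At chr14:50053516-50053577 on the plus strand the log2 folds were −4.53, −6.88, −5.78, −7.91, −5.93, −7.12 and −8.21. At chr3:181540735-181540778 on the minus strand they were −8.39, −7.72, −4.79, −6.42, −4.03, −5.82 and −7.33. At both, the input exceeded the FLAG immunoprecipitate in every range.

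Significant peaks were unevenly spread over chromosomes. Each chromosome's share of significant peaks was divided by its share of called peaks in the same library. Chromosome 14 had ratios of 1.65, 1.26, 1.24, 1.41, 1.26, 1.32 and 1.37, a mean of 1.36 ± 0.14 (SD, n = 7). Chromosome 4 averaged 1.22 ± 0.13, and both lay above 1 in 7 of 7 libraries. Chromosome 19 had ratios of 0.88, 0.59, 0.64, 0.44, 0.70, 0.68 and 0.56, a mean of 0.64 ± 0.14. Chromosome 22 averaged 0.65 ± 0.17, and both lay below 1 in all 7 libraries. So did chromosome 18, at 0.76 ± 0.12, and chromosome 8, at 0.82 ± 0.18. Of 24 chromosomes, counting X and the mitochondrial one, 6 lay above 1 and 7 below 1 in all 7 libraries. V5-only ratios for chromosome 19 averaged 1.09 ± 0.36, below 1 in 3 of 7 libraries, and for chromosome 14 they averaged 1.15 ± 0.16. For chromosome 4 they averaged 1.10 ± 0.24 and for chromosome 22 0.92 ± 0.23. Chromosome 21 lay above 1 in 7 of 7 libraries with either antibody, averaging 1.41 ± 0.11 in V5-only and 1.25 ± 0.14 in FLAG-only. Chromosome X averaged 1.53 ± 0.38 in V5-only, above 1 in 7 of 7, and 1.18 ± 0.19 in FLAG-only, above 1 in 5. The difference between antibodies was not tested.

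**Figure D5:**
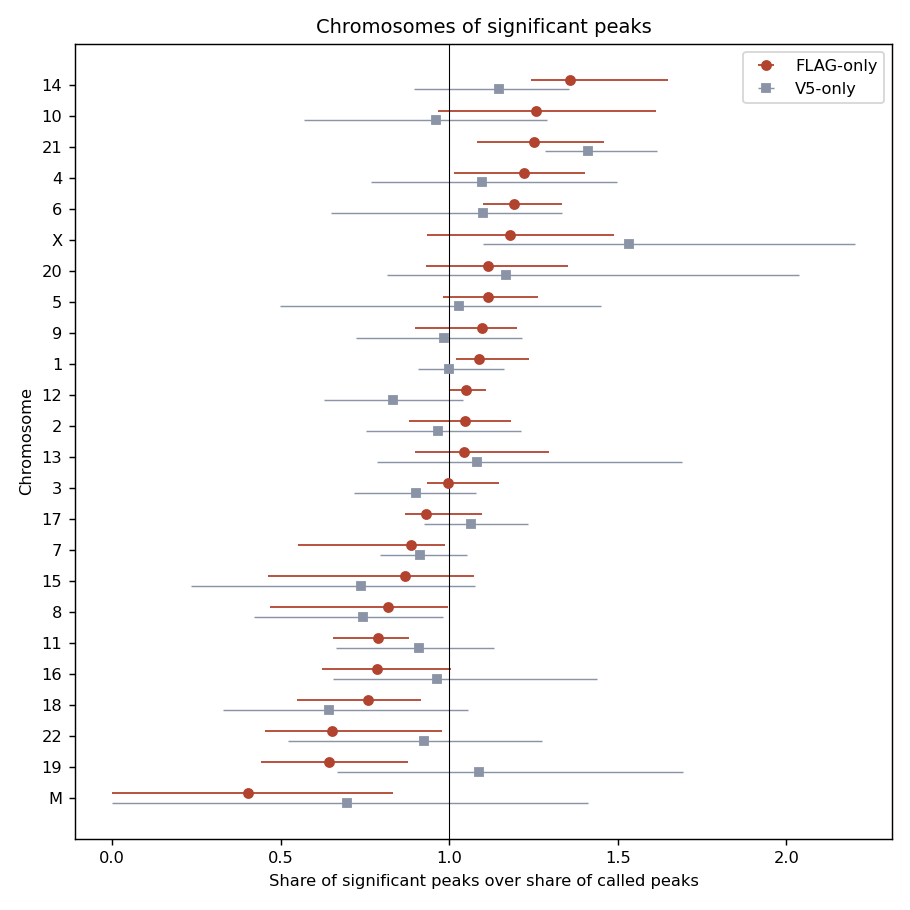
Share of significant peaks over share of called peaks (x) for each chromosome (y), as the mean over 7 gel ranges with lines from the lowest to the highest library, FLAG-only above V5-only. Chromosome 14 has the highest FLAG-only mean, 1.36, and the mitochondrial chromosome the lowest, 0.40.

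Peaks on the mitochondrial chromosome, whose transcripts are made inside the organelle, were called in like numbers in every range, 296, 306, 240, 295, 239, 253 and 302. Of these 0, 1, 7, 11, 44, 10 and 11 were significant, or 0%, 0.327%, 2.92%, 3.73%, 18.4%, 3.95% and 3.64%, each below the share over all called peaks of its library. Their percent of significant peaks averaged 0.278 ± 0.119 in the high ranges and 0.0796 ± 0.106 in the low ranges (SD, n = 3 each, exact permutation p = 0.20). The mitochondrial percent of called peaks averaged 0.488 in the high ranges and 0.441 in the low ranges. The mitochondrial percent of significant peaks had a rho of 0.71 with the lower bound (exact permutation p = 0.088, adjusted p = 0.108) and an r of 0.70 (exact permutation p = 0.079). Many of the significant peaks were short pieces lying end to end, as at chrM:1389-1390, chrM:1391-1396 and chrM:1397-1412. The peak counts and percents above are therefore not counts of separate sites. By covered nucleotides instead of peaks, the rho of the mitochondrial percent was 0.57 (exact permutation p = 0.20). Merged within 50 nt, the significant peaks formed 11 stretches. One, chrM:1389-1564 on the plus strand, held 3, 3, 18, 6 and 5 peaks in the 5 ranges from 75-150 kDa up, and chrM:1616-1651 on the plus strand held 2, 3, 2, 2 and 3. chrM:3073-3151 on the plus strand held 11 significant peaks at 125-200 kDa and none in another range. At chrM:5827-5859 on the minus strand, of highest fold among 3 significant peaks at the cap of 400 at 50-125 kDa, log2 folds were 2.60, 3.46, 4.30, 4.26, 0.74, 1.17 and 4.33. The values at 125-200 and 150-225 kDa were the lowest, between higher values on either side. V5-only folds there were 2.14, 1.89, 2.61, 3.12, −0.23, 0.56 and 3.18, with their lowest values in the same ranges and against the same inputs.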

How the data were processed

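The files were headerless peak lists, 1 per library, so peaks were called per library. Per the labels' protocols, RNA was cut with RNase I and recovered from a gel slice. The submitters' processing notes name cutadapt, STAR, GATK, Picard, SAMtools and hg19, without versions. No source used here names the peak caller. Each deposited peak carries the authors' −log10 p, ending at 400 or, for many peaks of high fold, at 15.7, and the authors' log2 fold over size-matched input. Positions are 1-based. No read totals were used, so absolute depth is unknown. Read numbers were inferred for peaks whose fold and p both matched whole reads (65.2% to 90.4% of significant peaks per library).

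Peaks sharing 1 nt or more on a strand counted as overlapping (Python 3.11.15, pandas 2.3.3, SciPy 1.17.1). Trends and neighbour overlap were tested by exact permutation over all orders of the 7 libraries, with Benjamini-Hochberg adjustment over 11 planned and, separately, 12 added tests. Tests of high against low ranges, of fewer libraries, of width at matched reads and of other alternatives were not adjusted. With 1 library per range, p-values measure only the order among these libraries, which may be technical. The functions were tested on simulated data. Regions named were the 6 of highest mean fold among those significant in all 7 libraries, the 5 of highest fold in the high ranges alone, and those in the low ranges alone (3 existed). The significant peak of highest −log10 p in each library was also named, ties going to the highest fold. A few more were chosen after their values were seen. Regions within 10 kb on a strand counted once, in place of regions in the same gene. Members and lists were chosen with earlier results of these data known. Gene lists, transcript features and base composition were not analysed here, for lack of an hg19 annotation and genome. Alternatives were other thresholds, other overlaps and leaving out each library.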

Additional observations from a re-analysis of the deposited data

Results flagged for a closer look

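Of 16 sets of 7 values examined, 1 had a library far from the others, where chance gives about 0.8. The median log2 fold of significant FLAG-only peaks was 3.71 at 125-200 kDa. The next highest library, 175-250 kDa, had 3.53, and the gap filled 0.573 of the range of all 7.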

How the results depend on the processing

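No paired analysis was possible because each gel range had 1 library and replicate numbers pair nothing. None of the trends and differences below reversed under any alternative run; p-values here are unadjusted exact permutation values, and none of the main results passed the adjusted threshold. Spearman's correlation of the number of significant peaks with range was 0.86 at a −log10 p of at least 5 (p = 0.024), that of the percent significant was 0.61 at a log2 fold of at least 2 (p = 0.167), and that of the median log2 fold was 0.32 over all called peaks (p = 0.498). Neighbour overlap minus other overlap was 2.19 points with all significant peaks, 1.76 with lists ranked by log2 fold and 2.48 with all called peaks (p = 0.0036), and as a difference in Spearman's correlation of folds, an alternative added after seeing the data, it was 0.035 (p = 0.062). Leaving out each library in turn gave a neighbour difference of 0.24 to 13.5 points, a high minus low difference of 1.12 to 2.13, and Spearman's correlations with range of 0.60 to 0.94 for the number, 0.71 to 0.89 for the percent, 0.54 to 0.94 for the mitochondrial percent, −0.99 to −0.74 for the median width and 0.77 to 0.89 for the median log2 fold. Without 25-100 kDa, the correlation of the width was −0.74 (p = 0.122), and without 175-250 kDa the correlation of the number was 0.94 (p = 0.017).

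At a log2 fold of at least 2 there were 27673 regions. Of these, 710 were significant in all 7 libraries, 12902 in at least 2, 639 in all 3 high and no low range and 36 in all 3 low and no high range. At a −log10 p of at least 5 there were 10264 regions, 3537 of them in at least 2 libraries and 37 in all 7. Merging within 50 nt left 1 region in the low ranges alone. The cause of these shifts was not tested, beyond thresholds admitting more or fewer peaks. Absolute depth is unknown, and the reads needed for significance differed between libraries.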
